A study of Mus musculus with 36 samples.

Results

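The genes described here are 10 of the 13 protein genes of the mouse mitochondrial genome, taken by their upper-case symbols from the rows of a hippocampal gene count table. They are ND1, ND2, ND4 and ND5 of complex I, CYTB of complex III, COX1, COX2 and COX3 of complex IV, and ATP6 and ATP8 of the ATP synthase. The table held 37 mitochondrially encoded rows in all. All 10 had counts in every library and all 10 passed the filter on low counts, among 25382 genes tested and 50559 rows in all. The table also held ND3, ND4L and ND6, the other protein genes of that genome, which are given beside the 10 where they bear on them. Bulk poly(A) RNA of female mice, 6 months old, was sequenced from the hippocampus in 36 libraries, in 8 groups set by 2 transgenes and by training in the Morris water maze (MWM). The genotype without either transgene is PV_Cre;RiboTag+/- (here WT). The genotype with APP alone is APP;PV_Cre;RiboTag+/-, the one with Tau alone is Tau;PV_Cre;RiboTag+/-, and the one with both is written APP/Tau;PV_Cre;RiboTag+/-. Transgenic parents were heterozygous. APP is the J9 line carrying the Swedish and Indiana mutations, Tau is the P301S line PS19, and the background is C57BL/6. Every group, WT included, also carried Pvalb-IRES-Cre and the RiboTag allele, which tags ribosomes in parvalbumin neurons, but only the input fraction was sequenced. The values therefore come from all cell types of the tissue and not from those neurons alone. They cover only the part of the homogenate that was kept as input, as described below. All mice were handled for 3 days. Naive mice then stayed in the home cage, whereas trained mice had 6 trials on each of 5 days, a probe test 24 hours later, and were killed 2 hours after it. There were 6 WT, 5 APP, 4 Tau and 6 APP/Tau naive libraries and 5 WT, 3 APP, 4 Tau and 3 APP/Tau trained libraries. Since the labels do not tie a sample to a single mouse, the p-values here speak for the spread among these samples, part of which may be technical.

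The mitochondrial genome encodes a core of membrane subunits for 4 respiratory complexes, and several times as many partner subunits come from nuclear genes and are imported. Its heavy-strand genes, which include all 10 described here, are transcribed as 1 long precursor, which is cut at the tRNAs between the genes into single messages that mostly carry short poly(A) tails. In neurons the respiratory chain supplies most of the ATP used for ion pumping and synaptic transmission. Per the labels' protocol, the homogenate was made in a detergent buffer and spun so as to leave a post-mitochondrial supernatant, and the input was a sample of that supernatant. The amounts below are therefore what the supernatant held. In such bulk samples, fewer cells of a type and less RNA per cell cannot be told apart.

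Levels came in 2 tiers that did not meet in any library. Per kilobase of gene, in CPM (counts divided by each library's total in M, after edgeR's TMM scaling), COX1, the catalytic core of cytochrome c oxidase, averaged 9495 ± 1359 (SD, n = 36 libraries). CYTB, the haem-bearing subunit of complex III, followed at 5927 ± 870, and then ND1 at 4972 ± 695 and ND2 at 3562 ± 565, both membrane-arm subunits of complex I. ND5 and ND4, the proton-pumping subunits at the far end of that arm, were at 2497 ± 426 and 2391 ± 353. Then came a drop of 29.2 times. COX2, which takes electrons from cytochrome c, was at 81.9 ± 17.2, COX3, a structural core subunit of the same complex, at 66.6 ± 26.8, ATP8, a small stator subunit, at 64.3 ± 27.3, and ATP6, which forms the proton channel with the rotor ring, at 55.4 ± 16.5. Within libraries the upper order was nearly fixed: COX1 was above CYTB, ND1 above ND2 and ND2 above ND5 in 36 of 36, and CYTB above ND1 in 35. ND5 was above ND4 in 26 of 36, with means 0.25 SD apart. In the lower tier COX2 was above COX3 in 24 of 36 libraries, COX3 above ATP8 in 19 and ATP8 above ATP6 in 25. Their means lay 0.57, 0.086 and 0.33 SD apart. The SD is that across libraries and ignores that both genes of a pair were read in the same libraries. No paired test was run, so whether these neighbours differ was not tested. Per kilobase, COX1 was 116 times COX2, 142 times COX3, 148 times ATP8 and 171 times ATP6. These are counts over the whole length of each gene. Nearly all 150-base windows of COX2, COX3 and ATP6, and 59.2% of those of ND4, also occur in nuclear pseudogenes. How reads that fit both places were counted is not known, so these ratios and this order need not be those of the RNA. The 6 upper genes made up 99.4% to 99.7% of all counts of the 10, and the 4 lower genes between 0.299% and 0.613%. Counts were large in both tiers, from 164218 to 1950571 per library in the upper and from 525 to 10767 in the lower.

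**Figure D1:**
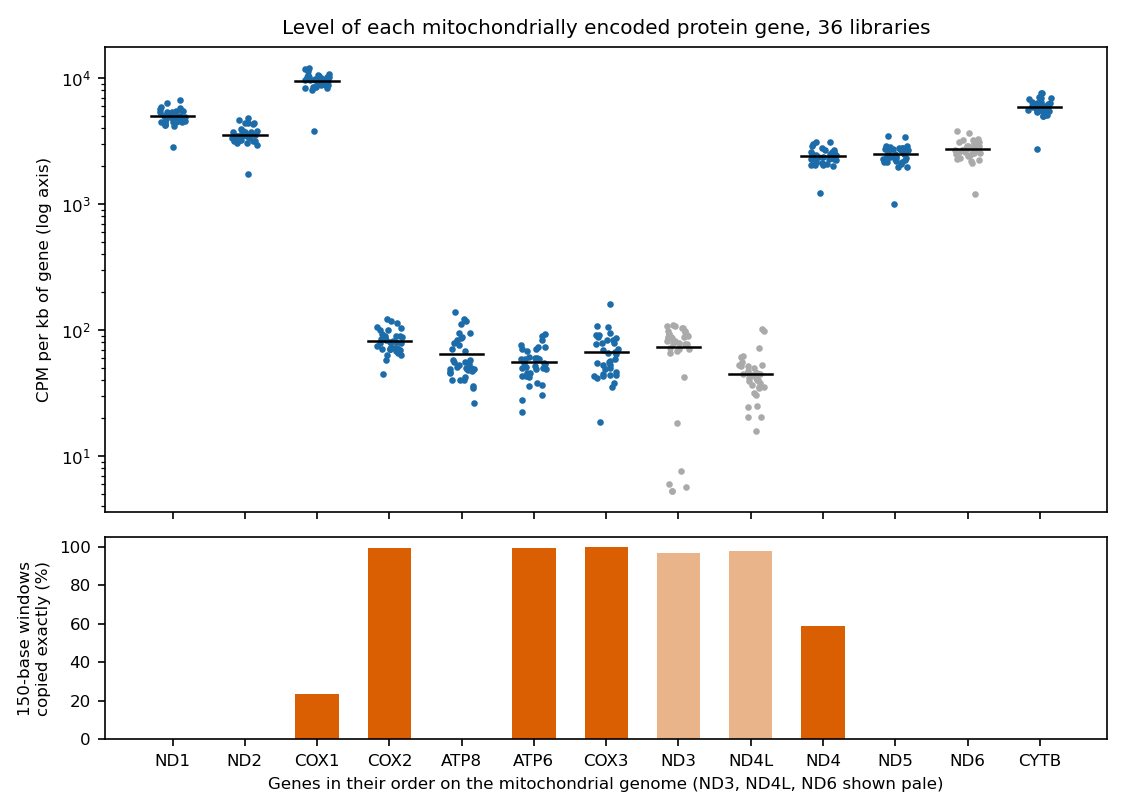
The upper panel plots CPM per kilobase (log axis) of each mitochondrially encoded protein gene in 36 libraries, with the mean as a bar, in the order of the mitochondrial genome. The lower panel plots the share of 150-base windows of each gene that occur unchanged in an annotated nuclear pseudogene. The run from COX2 to ND4L lies far below its neighbours, and COX2, ATP6, COX3, ND3 and ND4L have 97.0% to 99.8% of their windows copied.

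The lower tier followed the position of the genes. COX2, ATP8, ATP6, COX3, ND3 and ND4L are consecutive among the protein genes. The last pair was low as well, at 72.9 and 45.1 CPM per kilobase. ND4, which overlaps ND4L by 7 bases, was at 2391, and ND6 was at 2734. The stretch from COX2 to ND4L is the one copied into a nuclear pseudogene array on chromosome 1. In the GENCODE M21 annotation, 7 unprocessed pseudogenes spanning 4663 bases, all on the minus strand, carry COX1 (its end), COX2, ATP6, COX3, ND3, ND4L and ND4 (its start) in the mitochondrial order. The copies of COX2 (Gm28661, 681 aligned bases), ATP6 (Gm10925, 678), COX3 (Gm28437, 783), ND4L (Gm10222, 294) and ND4 (Gm28439, 876) differ from the genes at 0 bases, and that of ND3 (Gm28438) at 1, T3C, counted from the first base of the transcript. At the read length of 150 bases, 99.4% of the windows of COX2 and of ATP6 and 99.8% of those of COX3 occur unchanged in a pseudogene, against 59.2% for ND4, 23.6% for COX1 and 0% for ND1, ND2, ND5 and CYTB. No window of ATP8 matched an annotated pseudogene, but Gm10925 and Gm28661 lie 233 bases apart, where ATP6 and COX2 are 230 apart with most of ATP8 between them. How the authors treated reads that fit more than 1 place is not given in the sources used here, and the part of the nuclear copies in the low counts was not tested. The sequences that follow show the same stretch of COX2 and of its copy, which are identical, then the 2 edges of the array, where capitals mark the run that is identical to the pseudogene without a difference, and last the whole of ATP8, with the 43 bases it shares with the start of ATP6 in capitals. The COX1 copy in the array, Gm29216, aligns from base 1054 to 1545 with 6 differences, all before that run, which covers 479 bases from 1067. All are from GENCODE M21 transcripts, 5′ to 3′.
COX2: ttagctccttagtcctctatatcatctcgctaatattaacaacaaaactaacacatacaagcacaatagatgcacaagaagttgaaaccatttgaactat
Gm28661: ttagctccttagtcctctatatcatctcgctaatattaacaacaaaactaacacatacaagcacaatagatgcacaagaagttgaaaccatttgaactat
COX1, bases 1027 to 1126: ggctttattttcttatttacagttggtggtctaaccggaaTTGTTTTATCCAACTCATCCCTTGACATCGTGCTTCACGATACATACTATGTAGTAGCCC
ND4, bases 817 to 916: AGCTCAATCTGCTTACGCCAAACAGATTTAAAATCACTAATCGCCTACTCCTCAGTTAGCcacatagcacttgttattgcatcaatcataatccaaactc
ATP8: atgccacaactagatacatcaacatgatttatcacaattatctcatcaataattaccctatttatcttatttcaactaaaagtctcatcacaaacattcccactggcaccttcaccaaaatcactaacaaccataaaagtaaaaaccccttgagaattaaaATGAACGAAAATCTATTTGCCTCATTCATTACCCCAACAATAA
By sequence alone, nearly all 150-base stretches of COX2 fit both places, whereas most of those of COX1 and the end of ND4 fit only the mitochondrial gene among the transcripts searched. COX1 has a further copy, Gm13340, that is 97.6% identical over 1545 bases. Of the 7 pseudogenes in the array, 2 had rows of their own. Gm10925 ranged from 14.6 to 45.8 CPM, close to the 15.2 to 63.3 CPM of ATP6, and Gm10222 from 1.61 to 33.3 CPM, beside 4.66 to 30.5 for ND4L.

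Before the comparisons, 2 libraries need naming. WT trained replicate 5 had the lowest value of all 36 libraries for all 10 genes. Its COX1 was 5862 CPM, while the remaining 4 WT trained libraries held 12523 to 18084, and its ND1 was 2720 CPM against 4289 to 5666. Its members stood at 27.7% (COX3) to 57% (ND1) of the mean of those 4 libraries, and the 10 genes took 1.7% of its counts, against 3.27% to 4.79% in the other 35. Its total of 97.7 M counts was not low, in a series that ran from 69.2 to 124.8 M. The 2 mitochondrial rRNAs and ND6 were lowest of the 36 there too, but the mean level of 79 nuclear-encoded respiratory chain subunits was not, ranking ninth from the bottom. All 7 endothelial markers were also lowest in this library, summing to 43.1 CPM against 94.5 to 158 in the other 35, and Cdh5, at 2.02 CPM, was the lowest of them, so none was at 0. Their part in the low mitochondrial counts was not tested. The library labelled Tau trained replicate 4 goes against its label: Prnp, whose promoter drives the PS19 transgene, was 846 CPM there, with 1423 to 2142 in the other 16 libraries of Tau carriers and 728 to 879 in 19 non-carriers. Its COX1 was 15664 CPM, beside 15425, 15254.5, 14212.5 in the other Tau trained libraries. Values without the library are given beside the comparisons that rest on WT trained replicate 5. Leaving out Tau trained replicate 4 changed no call of the 10 genes, and gave medians over the 10 genes of 0.095 for Tau against WT in trained mice, -0.019 for training in Tau mice, -0.34 for non-additivity in trained mice and 0.16 for Tau genotype by training, which stood at 0.12, -0.0054, -0.35 and 0.18 with it. Of 12 markers of hippocampal pyramidal and granule neurons, none was at 0 in any library, and they summed to 1726 to 2668 CPM.

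**Figure D2:**
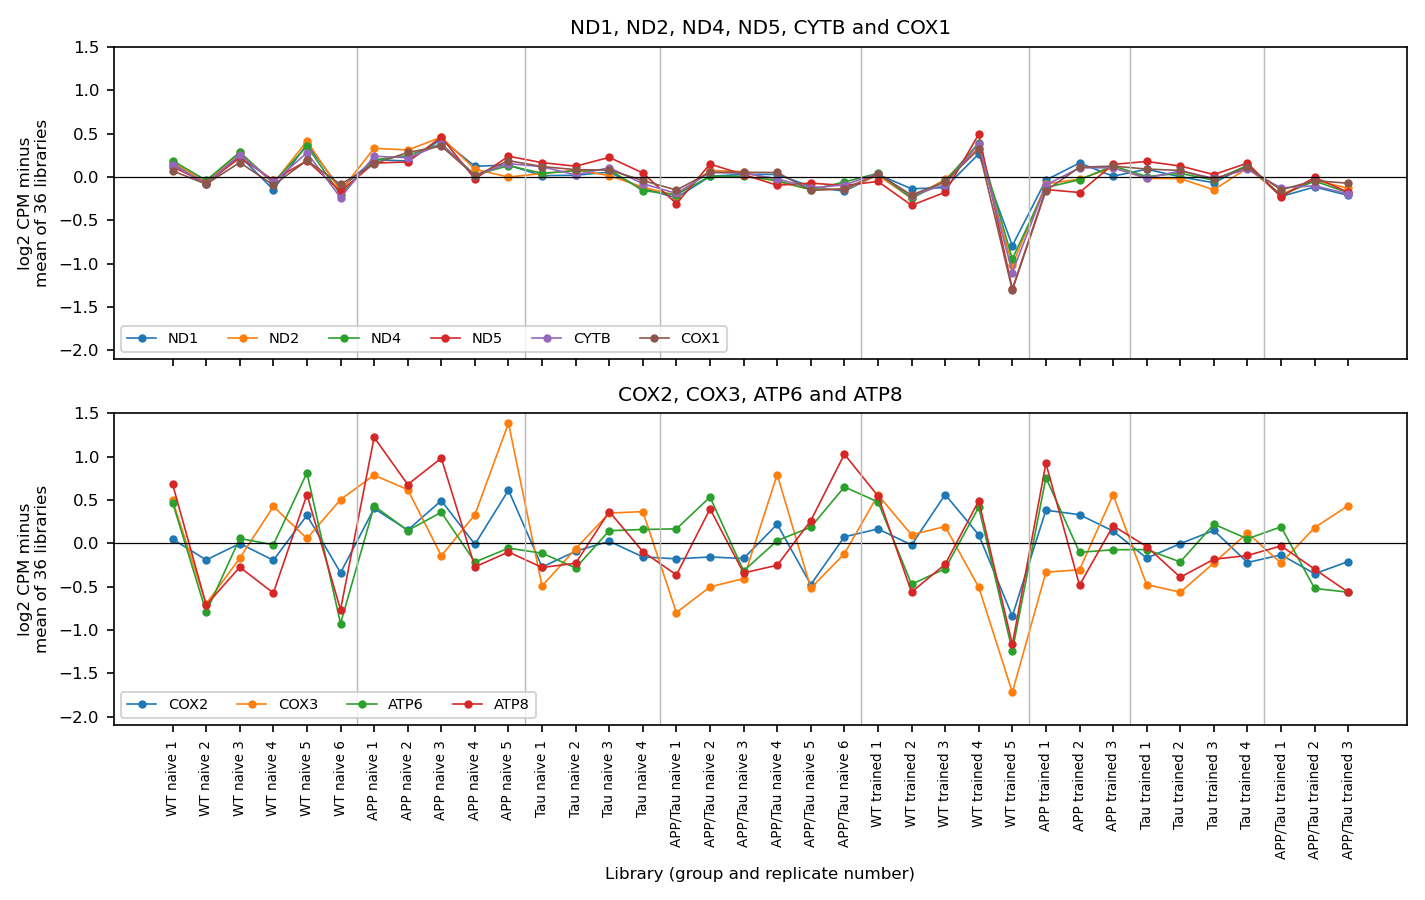
Each line is a gene and each point its log2 CPM minus its mean over the 36 libraries, in group order, for the 6 upper genes (top) and the 4 lower genes (bottom). The 6 upper lines lie close together in every library and drop together in WT trained replicate 5, while the 4 lower lines scatter.

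The 6 upper genes varied as a block. Their within-group SD on the log2 scale was 0.20 (ND1) to 0.28 (ND5), while the SD of each gene's log2 ratio to COX1 was only 0.066 (CYTB) to 0.12 (ND1). All 15 pairs among them were correlated across the 36 libraries, with Pearson's r from 0.87 to 0.98 and Spearman's rho from 0.77 to 0.96 (permutation test, largest adjusted p 5.94e-05 over 95 relations, the smallest these permutations can give). Without WT trained replicate 5 r was 0.78 to 0.96, without the 2 libraries farthest on the x gene 0.76 to 0.96, and on values centred on the group means 0.89 to 0.98. The lower genes were looser, with within-group SDs of 0.27 (COX2) to 0.56 (COX3, ATP8). ATP6 and ATP8, which overlap by 43 bases and are carried on 1 message, had r = 0.85 and rho = 0.84 (permutation test, adjusted p = 5.94e-05). COX3 went with neither ATP6 (r = 0.20, rho = 0.036, permutation adjusted p = 0.31) nor ATP8 (r = 0.28, rho = 0.23, permutation adjusted p = 0.15), although it is the next gene on the same precursor. Between the tiers all 24 relations passed by Pearson's r (0.41 to 0.65) and 12 by Spearman's rho (0.14 to 0.54). Those r fell as low as 0.067 without WT trained replicate 5, and to -0.020 without the 2 farthest libraries, so for some pairs the relation rests on those samples. All libraries share 1 table and 1 scaling.

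Of 50 relations of the 10 genes with measures of the libraries, 4 passed by Pearson's r. No gene went with the library total (r from -0.039 to 0.056), with the library number in the labels (-0.069 to 0.28) or with the choroid plexus score (0.22 to 0.31), and the smallest adjusted p over these 30 permutation tests was 0.090. ND1 (r = 0.48, rho = 0.54, permutation adjusted p = 0.025) and COX2 (r = 0.46, rho = 0.37, permutation adjusted p = 0.013) went with the mean of the nuclear-encoded subunits. ND1 (r = -0.45, rho = -0.49, permutation adjusted p = 0.025) and ND2 (r = -0.40, rho = -0.44, permutation adjusted p = 0.049) went against a score of nuclear-retained RNAs such as Malat1 and Meg3. By rank, all 6 upper genes passed against the nuclear-encoded subunits (rho 0.42 to 0.58) and 5 of them against the nuclear-retained RNAs. None of the 4 relations that passed by Pearson's r did so on values centred on the group means, where the r of ND1 were 0.39 and -0.32. When WT trained replicate 5 was left out, the 6 upper genes had r of -0.61 to -0.45 with the nuclear-retained RNAs, against -0.45 to -0.28 with it, and 0.21 to 0.55 with the nuclear-encoded subunits, against 0.20 to 0.48. Without the 2 libraries farthest on each score, these r were -0.35 to -0.21 and 0.39 to 0.47. ND1 and ND2 then no longer passed against the nuclear-retained RNAs (permutation adjusted p = 0.11 and 0.26). ND1 and COX2 still passed with the nuclear-encoded subunits (permutation adjusted p = 0.028 and 0.030). WT naive replicate 5 had the lowest nuclear-retained score, -0.99, with the next at -0.40.

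Across the 8 groups, COX1 spanned a narrow range of means. In naive mice it was 14808 ± 1369 CPM in WT (SD, n = 6), 16675 ± 1489 in APP (n = 5), 15118 ± 720 in Tau (n = 4) and 14045 ± 1072 in APP/Tau (n = 6). After training it was 13049.9 ± 4508 in WT (n = 5), 14807 ± 1588 in APP (n = 3), 15139 ± 640 in Tau (n = 4) and 13630.0 ± 517 in APP/Tau (n = 3). Single naive WT libraries ran from 13572 through a median of 14436 to 16521 CPM, and APP/Tau from 13005 through 14083 to 15034. The 5 APP naive values were 16096, 17615, 18532, 14633.5 and 16498, overlapping those of WT. WT trained libraries read 14833.5, 12523, 13947, 18084 and 5862 CPM, so that this group held the widest spread and, apart from replicate 5, overlapped every other group. The other upper genes had similar extremes: the APP naive mean was the highest of the 8 and the APP/Tau trained or WT trained mean the lowest for ND1 (5491 and 4149.5), ND2 (4333 and 3353), ND4 (3744 and 2947), ND5 (5182 and 3997) and CYTB (7726 and 6076). In no comparison of a genotype with WT, or of trained with naive mice, were the libraries of the 2 groups separated for any of the 10 genes.

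Library by library, the remaining genes also overlapped between the groups compared, each genotype with WT and trained with naive. For complex I, ND1 in WT naive libraries ran from 4258 through a median of 4842 to 6119.8 CPM, and in APP naive libraries it was 5418, 5349, 6371, 5132 and 5184. All 5 APP naive values lay above the Tau naive (4297 to 4900) and APP/Tau naive (3989 to 4812) libraries, pairs of groups that were not compared by a test. ND5 was 5022, 4881, 5238 and 4623 CPM in Tau naive and 5070.2, 4889, 4564 and 5005 in Tau trained libraries, the tightest pair of groups for this gene by SD (258 and 225). For complex III, CYTB was 6278, 7204 and 7206 CPM in APP trained and 6137, 6242 and 5848 in APP/Tau trained libraries. These 2 groups of 3 did not overlap, but they were not compared with each other. Of the 28 pairs of groups, 5 did not overlap for ND1, 4 for CYTB and 3 each for ND4, COX1 and COX2. For ND5 there were 2 such pairs, for ND2 1, and for COX3, ATP6 and ATP8 0. The share of such pairs over all genes was not worked out, so no result is read from them. The lower genes spread far more within a group. COX3 in APP naive libraries was 83.5, 74.5, 43.8, 60.9 and 127 CPM, and in APP/Tau naive libraries it ran from 27.8 through a median of 35.4 to 84.0. ATP6 in WT naive libraries ran from 18.96 through a median of 36.5 to 63.3 CPM. ATP8 in APP naive libraries was 28.3, 19.4, 24.0, 10.1 and 11.3 CPM, and in WT naive libraries it ran from 7.14 through a median of 9.10 to 19.5. Single libraries of the same group thus differed severalfold for COX3, ATP6 and ATP8, as the plot of CPM by group shows.

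**Figure D3:**
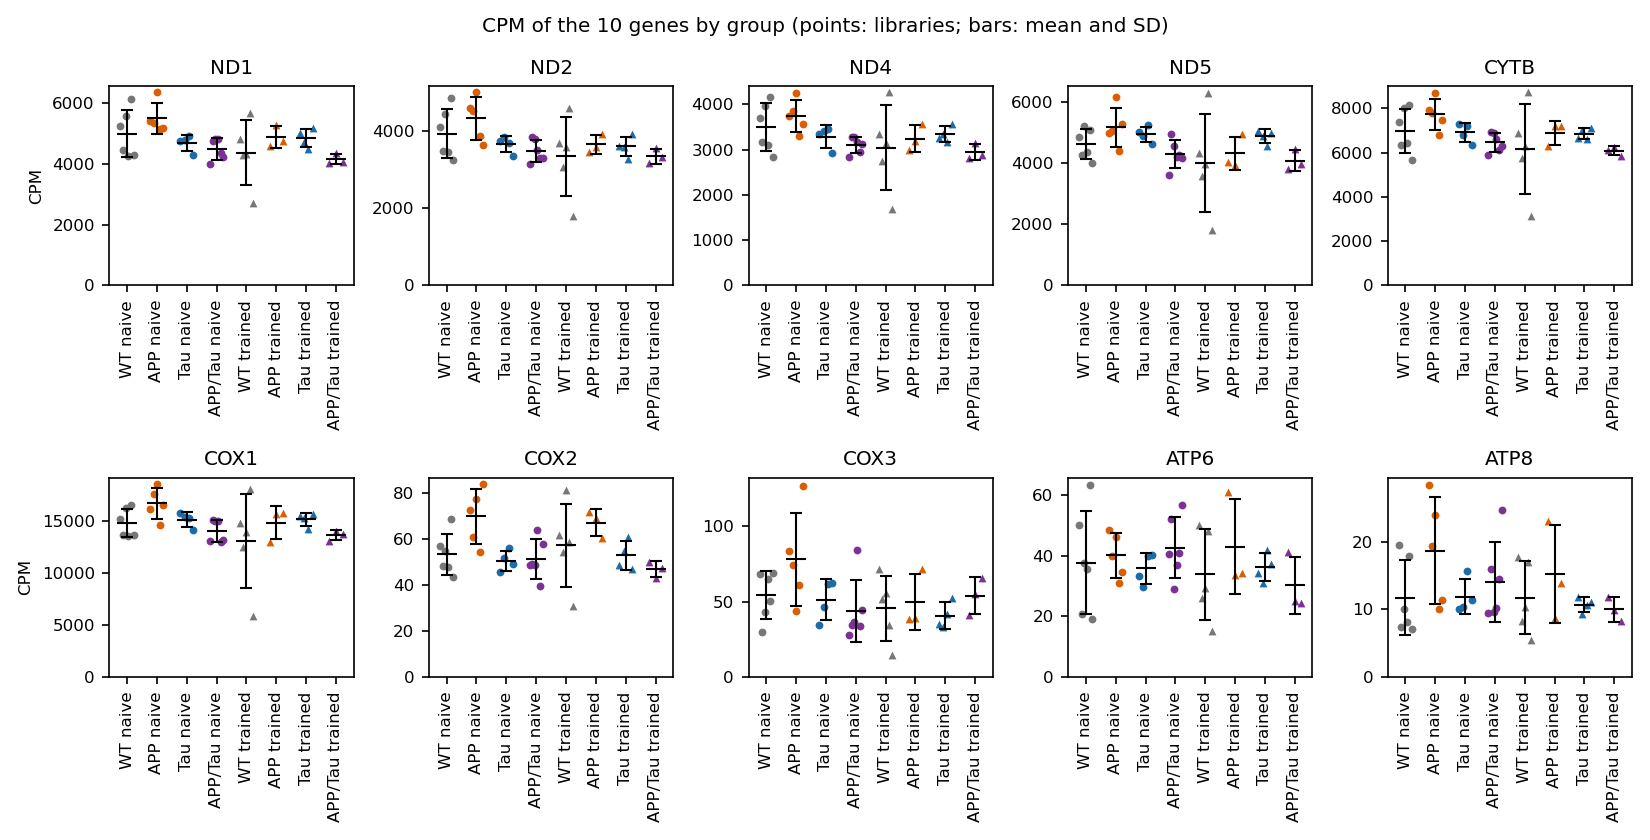
CPM of each gene (own axis, from 0) by group, with each library as a point and the mean and SD as bars. Each genotype overlaps with WT, and trained with naive mice, for all 10 genes, and the low WT trained point in each panel is replicate 5.

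In naive APP mice every fitted value lay above WT, and none passed the test. The log2 differences of the 10 genes had a median of 0.15, against -0.0077 for all genes tested, and 10 of 10 were above 0, but 0 of 10 passed edgeR's quasi-likelihood test with Benjamini-Hochberg adjustment over all genes, where 0.0355% of all genes did. COX2 was nearest, at 69.8 ± 12.0 CPM in APP (SD, n = 5) against 53.3 ± 9.0 in WT (n = 6), a log2 difference of 0.39 (SE 0.15, unadjusted p = 0.016, edgeR adjusted p = 1.00). The 5 APP values of COX2 were 72.5, 61.0, 77.2, 54.4 and 84.0 CPM, and WT ran from 43.4 through a median of 51.4 to 68.7, so the groups overlapped. ATP8 had the largest difference, 0.66 (95% interval -0.01 to 1.33), and COX1 one of 0.17 (-0.11 to 0.46). In Tau mice the median was -0.078 with 7 of 10 below 0, and in APP/Tau mice -0.11 with 8 of 10 below 0. No gene passed in either (0 of 10, beside 0.0276% and 0.067% of all genes). COX1 differed by 0.03 in Tau (-0.27 to 0.33) and by -0.08 in APP/Tau (-0.35 to 0.20). All 8 groups share 1 fit, so WT trained replicate 5 widened these naive intervals too. Without it the SE of COX1 went from 0.14 to 0.075 in APP, from 0.15 to 0.080 in Tau and from 0.13 to 0.072 in APP/Tau. In APP, 3 of 10 genes (COX1, COX2 and ATP8) then had an unadjusted p under 0.05 by edgeR. In Tau and APP/Tau 0 of 10 did, and 0 of 10 were called in each of the 3 comparisons. These 3 comparisons share their WT libraries. Beside the APP/Tau values, 1 of 9 interneuron markers was called, Npy, a neuropeptide, which fell by 0.55 (edgeR adjusted p = 0.037), and its part in the values was not tested. Beside the APP values, 12 of 12 choroid plexus markers were above 0, with a median of 1.19 and 0 called, and they summed to 953 to 4962 CPM in APP against 194 to 4006 in WT. All 7 endothelial markers were above 0 too, with a median of 0.17 and 0 called, summing to 104 to 158 against 94.5 to 119 CPM. No marker of either list was at 0, and their part in the values was not tested.

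After training, again 0 of 10 genes passed in APP, Tau or APP/Tau mice against WT, beside 0.0276%, 0.303% and 0.0552% of all genes. Median log2 differences were 0.16 with 10 of 10 above 0 in APP, 0.12 with 7 of 10 above 0 in Tau and -0.033 with 6 of 10 below 0 in APP/Tau. The WT replicate named above carried much of this. Without it the medians were -0.0043, -0.035 and -0.19, and COX1 moved from 0.18 to -0.0038 in APP and from 0.21 to 0.028 in Tau. In APP/Tau, COX2 then stood at -0.45 (SE 0.16, unadjusted p = 0.0073, edgeR adjusted p = 0.46), from -0.29 (SE 0.19) with it. COX2 in APP/Tau trained libraries was 50.1, 43.0 and 47.4 CPM, all below 4 of the 5 WT values of 61.6, 54.2, 81.0, 58.7 and 30.7.

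Training made no gene pass in any genotype. In WT the median log2 difference of trained from naive was -0.19 with 8 of 10 below 0, in APP -0.19 with 9 of 10, in Tau -0.0054 with 5 of 10, and in APP/Tau -0.081 with 9 of 10. Called genes were 0 of 10 by edgeR in each, as were called genes among all tested (0%), although 1486, 1329, 3707 and 780 genes had an unadjusted p under 0.05 in WT, APP, Tau and APP/Tau, none of them a member. DESeq2 called 1, 0, 428 and 0 genes there and limma-voom 0, 0, 833 and 0, again with no member. Without WT trained replicate 5 the WT median was -0.022 and COX1 went from -0.18 (SE 0.14) to 0.0038 (SE 0.080). In APP mice, ND2 (-0.24) and ND5 (-0.26) then had an unadjusted p under 0.05 by edgeR, each with an edgeR adjusted p of 0.92. Averaged over the 4 genotypes, 10 of 10 genes were lower in trained mice, with a median of -0.12 (-0.082 without that library) and 0 of 10 called by edgeR (0% of all genes, with 2018 at an unadjusted p under 0.05, and 6 by DESeq2 and 1 by limma-voom). The largest size was COX3 at -0.24 (95% interval -0.61 to 0.14) and the smallest COX2 at -0.0056 (-0.18 to 0.17).

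**Figure D4:**
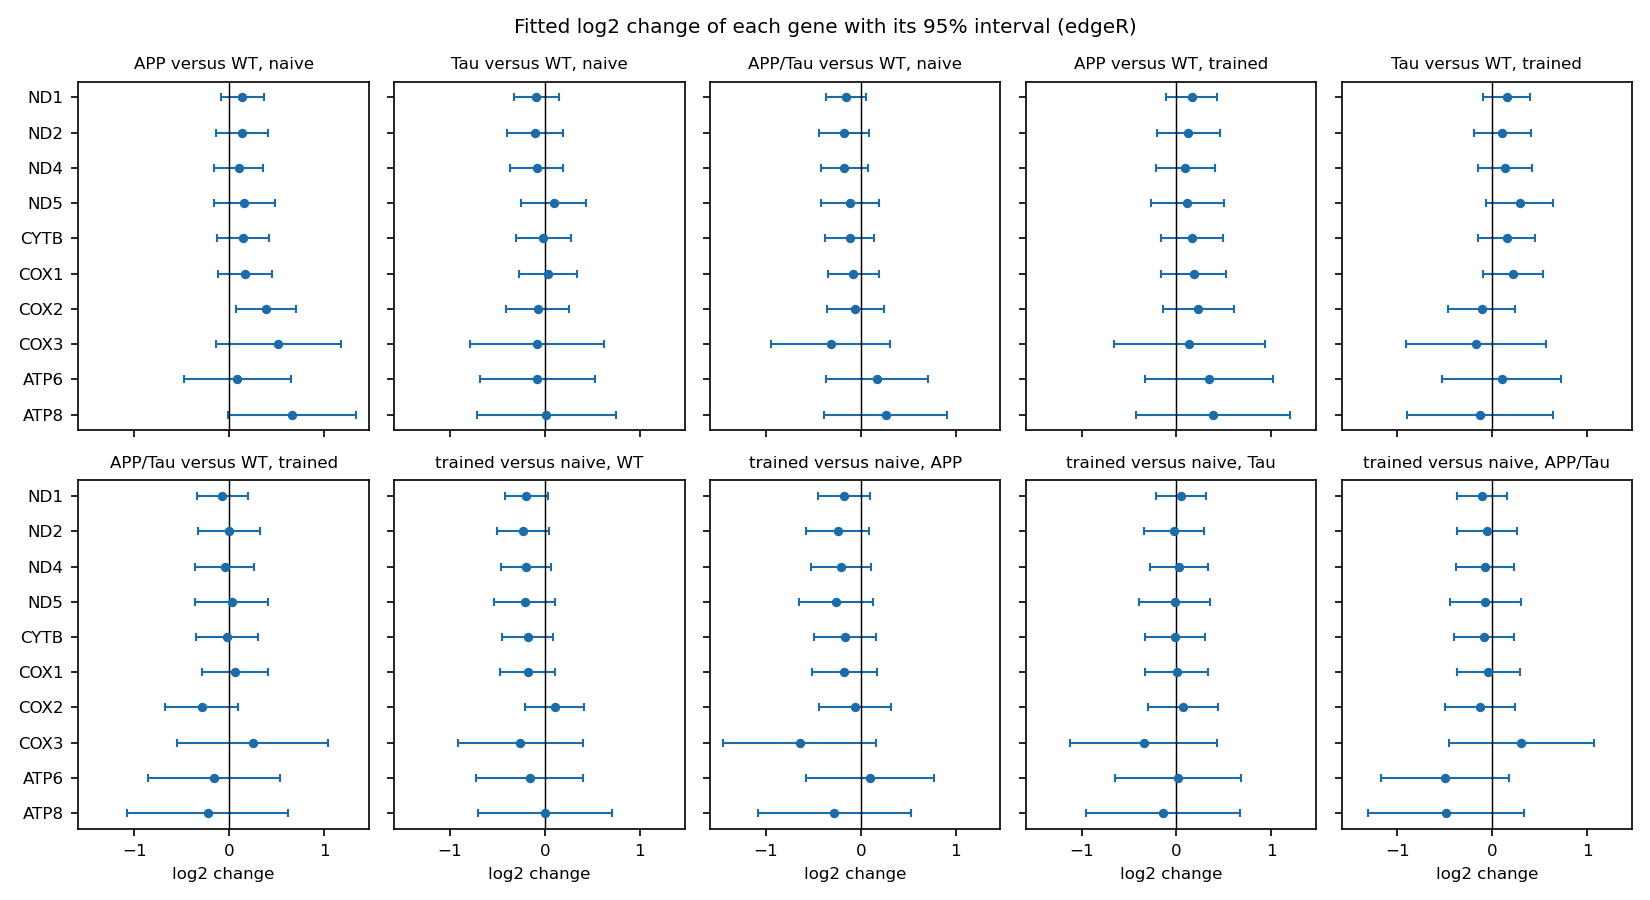
Fitted log2 change of each gene (edgeR) with its 95% interval in the 6 comparisons with WT and the 4 of trained with naive mice. Every interval crosses 0 except that of COX2 in naive APP mice, which does not pass after adjustment, and intervals are wider for COX3, ATP6 and ATP8 than for the others.

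Tests of how the transgenes and training combine gave no call either. If the APP and Tau differences simply added on the log2 scale, non-additivity would be 0. Its median over the 10 genes was -0.26 in naive mice and -0.35 in trained mice, with 9 of 10 below 0 in each and 0 of 10 called by edgeR (0% and 0.0118% of all genes). With all libraries, ND1 in trained mice was nearest, at -0.38 (95% interval -0.78 to 0.01, unadjusted p = 0.054, edgeR adjusted p = 0.54). Without WT trained replicate 5 the trained median was -0.18, and ND1 stood at -0.25 there (edgeR unadjusted p = 0.097). The naive median was then -0.26, and 3 of 10 genes had an unadjusted p under 0.05 in naive mice. These were COX1 (-0.28), ND5 (-0.36) and COX2 (-0.37), with edgeR adjusted p from 0.61 to 0.68. The genotype-by-training terms had medians of -0.0091 for APP, 0.18 for Tau and 0.11 for APP/Tau, again with 0 of 10 called in each (0%, 0% and 0% of all genes by edgeR, with 678, 2294 and 1052 at an unadjusted p under 0.05). DESeq2 called 1, 15 and 0 genes in these and limma-voom 0 in each, none a member. Without that library the 3 medians were -0.17, 0.00012 and -0.048.

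COX2 was the gene that came nearest to a call, in the comparison of all 17 Tau carriers with all 19 non-carriers. Among carriers it ran from 39.5 through a median of 49.2 to 63.9 CPM, and among non-carriers from 30.7 through 60.5 to 84.0. The groups overlapped, and the lowest non-carrier was WT trained replicate 5. By group, carriers averaged 50.5 ± 4.3 (Tau naive), 51.2 ± 8.5 (APP/Tau naive), 52.8 ± 6.3 (Tau trained) and 46.8 ± 3.5 CPM (APP/Tau trained), against 53.3 ± 9.0 (WT naive), 57.2 ± 18.05 (WT trained), 69.8 ± 12.0 (APP naive) and 67.0 ± 5.8 CPM (APP trained). By these means the gap was wider between APP and APP/Tau mice than between WT and Tau mice, naive and trained. An average over groups covers both, and non-additivity of COX2 was not called in naive or trained mice. The log2 difference averaged over groups was -0.29 (SE 0.088, unadjusted p = 0.0026), which missed the threshold with an edgeR adjusted p of 0.11, in a comparison that called 0.835% of all genes. It passed in 3 of 44 alternatives: with DESeq2 (adjusted p = 0.042, where 2.39% of genes were called), without WT trained replicate 5 (-0.33, SE 0.070, edgeR adjusted p = 0.024, with 0.694% of genes called) and without that library and Tau trained replicate 4 together (-0.31, edgeR adjusted p = 0.030). Leaving out Tau trained replicate 4 alone gave -0.27 and an edgeR adjusted p of 0.15. The other 9 genes did not pass in any of the alternatives run. Their median with COX2 was -0.10 with 9 of 10 below 0, the exception being ND5 at 0.0072, and COX1 stood at -0.031 (95% interval -0.19 to 0.13). Without WT trained replicate 5, 10 of 10 were below 0 with a median of -0.15, ND5 at -0.039 and COX1 at -0.077 (SE 0.044). ND1 (-0.15), ND2 (-0.15), ND4 (-0.13) and CYTB (-0.12) then had an unadjusted p under 0.05, with edgeR adjusted p from 0.15 (ND1) to 0.29 (CYTB). Since COX2 reads cannot be placed apart from the chromosome 1 copy, what its row counts is uncertain. Markers of oligodendrocytes, the myelinating cells, moved with the same comparison. Of 8, 7 were higher in carriers by edgeR (Mbp by 0.36, adjusted p = 0.011, Mag by 0.39, Cnp by 0.36 and Mog by 0.37 among them), summing to 3327 to 5890 CPM in carriers and 2907 to 5216 in non-carriers, and none was at 0. Of 9 microglial markers 0 were called, with 7 at an unadjusted p under 0.05 and a median of 0.31. Neat1, of the nuclear-retained RNAs, was higher by 0.51 (edgeR adjusted p = 0.034), the 1 of 10 called there. The part of any of these lists in the COX2 difference was not tested.

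**Figure D5:**
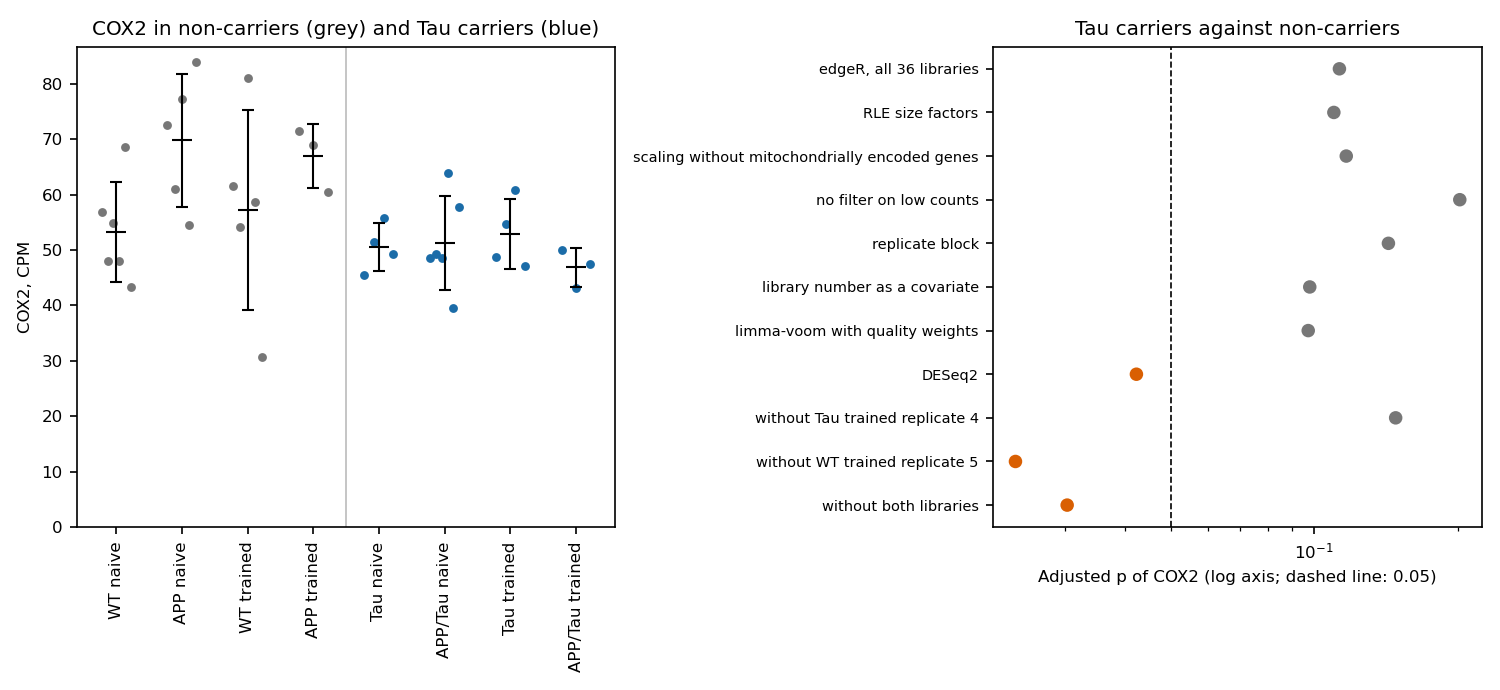
The left panel plots COX2 CPM by library, with group mean and SD, in the 4 groups without Tau (grey) and the 4 with it (blue). The right panel plots the adjusted p of COX2 in carriers against non-carriers under the alternatives that use all libraries and those that leave out the libraries named in the text (log axis). It falls under 0.05 with DESeq2, without WT trained replicate 5, and without that library and Tau trained replicate 4 together.

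All APP carriers against all non-carriers gave a median of 0.023 with 8 of 10 above 0 and 0 of 10 called by edgeR, beside 0.0985% of all genes. The largest difference was 0.30 for ATP8 (95% interval -0.09 to 0.69), and COX2 stood at 0.12. Without WT trained replicate 5 the median was -0.020, with 4 of 10 above 0. Markers of the choroid plexus, which borders the hippocampus, had a median of 1.29 in the same comparison, with 12 of 12 above 0 and 0 called by edgeR (12 at an unadjusted p under 0.05), and their part in the values was not tested. Over all 18 comparisons, 0 of 180 tests of these genes passed by edgeR and 2 had an unadjusted p under 0.05, both of COX2. When WT trained replicate 5 was left out, 14 of 180 had an unadjusted p under 0.05, and 1 was called by edgeR, COX2 in Tau carriers. DESeq2 called 1 of 180 and limma-voom 0. In the 10 comparisons of 2 groups, the 6 upper genes had log2 differences from -0.26 to 0.29 with SEs of 0.11 to 0.19, and no 95% interval reached beyond -0.65 or 0.64. For the 4 lower genes differences ran from -0.64 to 0.66 with SEs of 0.15 to 0.42.

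The nuclear-encoded partners of these subunits were followed in a list of 79 (37 of complex I, 4 of complex II, 9 of complex III, 12 of complex IV and 17 of the ATP synthase), all of them tested. In the 10 comparisons of 2 groups, 0 of 79 were called by edgeR. Their medians were small, and signs were nearly all alike in some comparisons and split in others. Trained APP/Tau against WT mice were split, with 47 of 79 above 0 and 32 below (median 0.0080). Those values are from the fit without Tau trained replicate 4, a library outside that comparison. Against WT, the median was -0.11 in naive APP/Tau mice, with 79 of 79 below 0 and 17 at an unadjusted p under 0.05. It was 0.15 in trained APP mice, with 77 of 79 above 0 and 22 at an unadjusted p under 0.05. Of all 25382 genes, 1899 and 1482 had an unadjusted p under 0.05 in these last 2 comparisons. In the 10 mitochondrial genes the same comparisons had medians of -0.11 and 0.16. In the naive comparison, WT naive replicate 5 stood apart: the mean log2 level of the 79 relative to all libraries was 0.25 there. It was -0.088 to 0.029 in the rest of that group and -0.20 (replicate 5) to -0.018 in APP/Tau naive libraries. Neither replicate 5 was left out for these genes, so how far the naive median rests on them was not tested. Libraries outside this naive comparison share its fit and moved the count of 17. By edgeR, 35 of 79 had an unadjusted p under 0.05 without APP trained replicate 2, and 16 without WT trained replicate 5. The median was -0.11 in both. The trained APP values of both sets rest on single libraries. The mean log2 level of the 79 relative to all libraries was -0.071, 0.42 and -0.074 in the 3 APP trained libraries, so that replicate 2 alone was high. Without APP trained replicate 2, 17 of 79 were above 0 in trained APP against WT mice (median -0.044, 0 at an unadjusted p under 0.05), while the mitochondrial median was 0.16. Without WT trained replicate 5, 78 of 79 were above 0 (median 0.15) and the mitochondrial median was -0.0043. In trained against naive APP mice 69 of 79 nuclear-encoded subunits were above 0 (median 0.060) and 9 of 10 mitochondrial genes below. Without APP trained replicate 2, 79 of 79 were below 0 (median -0.13), so that this parting of signs rests on that library. In Tau carriers 78 of 79 were below 0, with a median of -0.071. Atp5l, subunit g of the ATP synthase, was the 1 of 79 called (lower by 0.21 on the log2 scale, SE 0.049, edgeR adjusted p = 0.033). In that comparison 0.835% of all genes were called. Without APP trained replicate 2, 62 of 79 were below 0 there (median -0.020) and 0 were called, with 6 at an unadjusted p under 0.05. No member of the lists of assembly factors (39), of mitochondrial transcription and genome maintenance (16), or of RNA processing and decay in the organelle (17) was called by edgeR in Tau carriers, in APP carriers or in training averaged over genotypes.

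The nuclear genes whose levels most resembled the mean of the 10 across the 36 libraries were ranked by Pearson's r. Among 10764 genes compared, the 10 highest Pearson's r were those of Pecam1 (0.70), Rgs5 (0.67), Ly6c1 (0.66), Cldn5 (0.65), Vtn (0.65), Flt1 (0.65), Bcam (0.64), Itm2a (0.63), Podxl (0.62) and Cavin1 (0.61). Pecam1, Cldn5 and Flt1 mark endothelial cells and Rgs5 and Vtn pericytes. Centred on group means, r was 0.59 to 0.78. Much of this came from 1 library: without WT trained replicate 5 the same genes had r from 0.13 (Flt1) to 0.47 (Bcam), and 0 of them was among the 10 highest, which were led by Reep6 (0.63) and Rad9a (0.60). The lowest were Dstyk (-0.63), Nup155 (-0.59), Gapvd1 (-0.56), Dclk2 (-0.54) and Alkbh1 (-0.54), of which Dstyk kept -0.50 without that library. These are descriptions over libraries that share 1 table and 1 scaling.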

How the data were processed

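The authors deposited raw counts per gene, whole numbers in 1 table of 36 libraries, and no other unit was used. Trimmomatic 0.39 and mm39 are named as trimmer and build, per the submitters' processing notes. Which aligner and counter were used, whether strand was used and how reads with several places were treated is not given in the sources used here. Groups, sample numbers and library numbers were read from the labels. The 10 genes and all lists were chosen with earlier results of these data known. Counts were fitted in edgeR 4.0.16 (R 4.3.3): genes kept by filterByExpr (minimum count 10, minimum total 15), TMM scaling, 1 quasi-likelihood fit over 8 groups, 18 contrasts, Benjamini-Hochberg adjustment over 25382 genes at 0.05. CPM are TMM-scaled, and scores are means of log2 CPM (prior count 2) minus each gene's mean. Correlations used 2-sided permutation tests (100000 resamples), adjusted over 95 relations. The 10 genes were described whatever their values. From each list called genes were named, up to 4 per direction by smallest p, and the 10 highest and 5 lowest r were named among genes with mean log2 CPM of at least 3. Gene lengths, neighbours and transcripts are from RefSeq and GENCODE M21 on GRCm38, another build than that of the files, so no position is printed. Alternatives were RLE scaling, scaling without mitochondrially encoded genes, no filter, a replicate block, the library number as a covariate, DESeq2 1.42.0, limma-voom 3.58.1, only the groups compared, and each library left out. Leaving out WT trained replicate 5 and Tau trained replicate 4 together, and leaving out single libraries for the nuclear-encoded subunits, were added after seeing the data. Same-group libraries differed by more than sampling noise in all 68 pairs (smallest chi-square per degree of freedom 14.4). The procedure was tested on simulated data with planted changes larger than any difference of the 10 genes and with no deviant library. That test therefore does not show how well changes of the size seen here would be found.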

Additional observations from a re-analysis of the deposited data

Results flagged for a closer look

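In 60 tests of a highest or lowest library within a group (10 genes in groups of 4 to 6; groups of 3 were not tested), 2 stood apart by Dixon's criterion, where chance flags about 1 group in 20. ND1 was 6371 CPM in APP naive replicate 3, and the next of the 5 libraries was 5418. COX3 was 84.0 CPM in APP/Tau naive replicate 4, and the next of the 6 was 44.6.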

How the results depend on the processing

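The count of called genes was 0 of 10 in 452 of 455 alternatives. In Tau carriers against non-carriers it was 1 (COX2) with DESeq2 and 1 without both WT trained replicate 5 and Tau trained replicate 4, and with 1 library left out at a time it was 0 to 1, the 1 being without WT trained replicate 5. The cause was not tested. COX2 there stayed between -0.33 and -0.25, with adjusted p from 0.024 to 0.20. The median log2 difference moved by less than the within-group SD of 0.26 in all 455, yet changed sign in 27, of which 9 were APP genotype by training. That SD is larger than most of the medians and includes WT trained replicate 5, so it is a loose measure and does not show that they are stable. The relations with library measures passing were 4, and 0 on values centred on the group mean. Relations among the members passing were 43, and 27 without the 2 libraries farthest on the x measure. With a replicate block, 0 of 10 genes were called in every comparison, and in Tau carriers 191 genes were called in place of 212. Sample numbers did not pair the libraries: same-numbered libraries of different groups had a mean r of -0.0052 over 106 pairs, 0.0013 over 456 others, and 7 of 36 libraries were best correlated with their own number. The depth of 69.2 to 124.8 M counts does not limit the upper genes, whose limit is the spread between libraries. Counts of all called genes moved more: in trained Tau against WT mice 77 became 555 with DESeq2, 1351 with limma-voom, 360 without WT trained replicate 5 and 32 without Tau trained replicate 4, in Tau carriers 212 became 568 with DESeq2 and 124 without the filter, with DESeq2 APP/Tau trained against WT went from 14 to 82 and APP carriers from 25 to 74, and in trained against naive Tau mice 0 became 428 and 833 with DESeq2 and limma-voom.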

Other observations

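ND3 and its tRNA neighbours, which are not among the 10 genes, fell into 2 ranges. TrnG, next to ND3, was 0.127 to 0.231 CPM in 6 libraries (9 to 24 counts) and 8.38 to 21.04 in the other 30. ND3 was 1.84 to 6.35 CPM in the same 6 and 14.7 to 38.2 in the others, and TrnR, on its other side, was 0.109 to 0.244 and 0.835 to 3.25. The 6 are Tau naive 1, APP naive 1, WT naive 2 and 4, APP/Tau naive 1 and APP trained 1, from 4 genotypes and both training states, with library numbers 11, 22, 10, 16, 13 and 6. COX3, on the other side of TrnG, was 27.8 to 83.5 CPM in the 6 and 14.7 to 127 in the rest, and COX1 was 12976 to 16096 and 5862 to 18532, so COX1 and COX3 did not divide in this way. ND4L, on the other side of TrnR, divided in part: it was 6.02 to 9.15 CPM in 5 of the 6 and 13.4 in WT naive 4, and at or above 9.40 in 29 of the other 30, the exception being WT trained 5 at 4.66. The 6 were found from these values and were put in no comparison.

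Of the mitochondrially encoded genes outside the 10, ND6, the light-strand protein gene, followed the 6 upper genes most closely (r = 0.95 with their mean over 36 libraries), with TrnE beside it at 0.86. The rRNAs mt-Rnr2 and mt-Rnr1 had r of 0.78 and 0.73. TrnG, ND3 and TrnR were lowest, at 0.12, 0.20 and 0.20.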
